A study of Mus musculus with 24 samples.

Results

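Levels of 10 transcripts were compared: serum response factor (Srf), its coactivators myocardin-related transcription factors A and B (listed as Mkl1 and Mkl2), the coactivator Yes-associated protein (Yap1), and 6 genes known as targets of these factors, namely transgelin (Tagln), calponin 1 and 2 (Cnn1, Cnn2), connective tissue growth factor (Ctgf), Cyr61 and Ankrd1. They were listed by name for their known function, and all 10 are among the 24043 gene symbols of the deposited table. RNA-seq was run on C2C12, an established mouse myoblast line, in 4 groups of 2 biological replicates, called A and B. Growth medium held 10% fetal bovine serum and differentiation medium held 2% horse serum supplemented with insulin, transferrin and selenium. Cells in each medium were kept at 21% oxygen (normoxia) or 2% oxygen (hypoxia). The labels name no transgene or deletion. Stocks were split before they became confluent, while differentiating cells were seeded at a fixed number in wells. The days in differentiation medium, the hours at 2% oxygen and what separates replicate A from B are not given in the sources used here, and the H3K27me3 and input libraries of the series were not analysed here.

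SRF is a transcription factor that binds a short element, the CArG box, in the promoters of genes for actin, actin-binding proteins and muscle contractile proteins. The coactivators encoded by Mkl1 and Mkl2 are held in the cytoplasm by actin monomers and move to the nucleus when actin polymerises, whereas another group of SRF partners, the ternary complex factors, links SRF to serum-induced early genes such as Fos. YAP works with TEAD factors, which bind the sequence GGAATG, and is kept out of the nucleus by the kinases of the Hippo pathway. Both systems read cell tension, density and serum. SRF is required for skeletal muscle differentiation, and YAP is known for promoting myoblast proliferation.

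Promoter windows were searched for both elements, since these are the sequences that SRF and the TEAD factors bind. RefSeq sequence (GRCm38.p6) from 250 bases before to 50 bases after the annotated start was matched for 8 of the 10 genes. Tagln and Ctgf were not matched. The CArG box was found in Srf and Cnn2, which is 25% of the 8 genes, beside 1.81% of the 27025 genes with a window. Both strands were searched, and the CArG pattern is its own reverse complement. The TEAD element GGAATG, or CATTCC on the other strand, was found in Ankrd1, Cyr61, Yap1 and Mkl2 (in 1 of its 3 windows), which is 50% of the 8 genes, beside 16.6% of all genes. Neither element was found in the windows of Mkl1 and Cnn1. A match describes letters and does not show that the factor binds. The stretches below show the elements of 4 of these genes, Srf, Cnn2, Cyr61 and Ankrd1, while those of Yap1 and Mkl2 are not printed. The element is in capitals and the rest in lower case, 5′ to 3′ on the gene's own strand. The Srf stretch, chr17:46556175-46556284 on the minus strand, has CArG boxes at -82 to -73 and at -62 to -53 from the start, so the gene for the factor carries the factor's own element.
Srf: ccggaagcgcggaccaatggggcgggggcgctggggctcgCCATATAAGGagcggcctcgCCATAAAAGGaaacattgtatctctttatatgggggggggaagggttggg
The Cnn2 stretch, chr10:79988504-79988593 on the plus strand, has its CArG box at -56 to -47.
Cnn2: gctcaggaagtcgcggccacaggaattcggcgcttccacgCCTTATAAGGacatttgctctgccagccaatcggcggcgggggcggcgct
The Cyr61 stretch, chr3:145650043-145650128 on the minus strand, has the TEAD element on the opposite strand, at -103 to -98.
Cyr61: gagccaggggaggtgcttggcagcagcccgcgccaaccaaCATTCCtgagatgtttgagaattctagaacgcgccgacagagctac
The Ankrd1 stretch, chr19:36119922-36120094 on the minus strand, has the TEAD element at -210 to -205 and again at -123 to -118.
Ankrd1: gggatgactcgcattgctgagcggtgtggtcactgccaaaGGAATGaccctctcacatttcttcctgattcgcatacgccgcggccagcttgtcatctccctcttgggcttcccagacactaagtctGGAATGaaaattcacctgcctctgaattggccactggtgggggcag

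Levels are FPKM, fragments scaled for transcript length and library total, and changes are differences of log2(FPKM + 1) from 1 limma fit to the 8 libraries, a scale that shrinks the change of weakly expressed genes. A change was called at an adjusted p under 0.05 (Benjamini-Hochberg over the 12389 genes tested). Between 14917 and 15672 genes were above 0 per library. Absolute depth is unknown, and relative depth ran from 0.633 to 1.00, with both ends of that range in hypoxic differentiation medium (replicates B and A). These 2 libraries also stood apart from each other for most of the 10 genes, which is described further on, and values without either of them are given where they change a result. Rescaling the libraries by median-of-ratios moved the median change over the tested genes from -0.20 to 0.03 for differentiation in normoxia, from -0.14 to -0.04 for hypoxia in growth medium, from 0.15 to -0.03 for hypoxia in differentiation medium and from 0.27 to -0.01 for the interaction, so small changes are to be read against those medians. The share of calls that were higher moved from 38.4% to 53.6% in the first of these comparisons. The identity of the cells was checked with muscle markers. Myod1, the determination factor of myoblasts, was present in all libraries (6.95 to 180.5 FPKM), and Myog, the differentiation factor, was at 2576 and 2642 FPKM in normoxic differentiation medium and at most 13.3 FPKM elsewhere. In hypoxic differentiation medium Myog was at 4.49 and 2.14 FPKM and Myod1 at 6.95 and 11.8. Differentiation in normoxia or in hypoxia therefore names the change of medium at that oxygen level, not a state that the cells reached.

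All 10 genes passed the filter of a mean of 1 FPKM in at least 1 group, although Cnn1 passed only through hypoxic differentiation medium. For differentiation in normoxia, 7 of the 10 changed, 3 higher and 4 lower, where 66.5% of all tested genes changed. For differentiation in hypoxia, 2 changed, 1 in each direction, where 40.9% of all genes did. For hypoxia in growth medium, 1 fell and none rose, where 41.4% of all genes changed. For hypoxia in differentiation medium, 5 changed, 3 higher and 2 lower, where 65.2% of all genes did. The interaction is how much the medium change at 2% oxygen exceeds the one at 21%. It was called for 5, 3 positive and 2 negative, where it was called for 54.1% of all genes (35.4% positive, 18.7% negative). The libraries of the 2 groups compared did not overlap for all 10 genes in the first comparison (87.0% of all genes), 6 in the second (70.3%), 7 in the third (77.2%) and 7 in the fourth (83.1%). The counts for differentiation and for hypoxia in differentiation medium are near or below those shares, and so it is the sizes and patterns of single genes that are described here. Counts depended on single libraries. Without hypoxic differentiation replicate A, differentiation in hypoxia had 5 higher and 2 lower genes, and without replicate B it had none higher and 5 lower. Hypoxia in growth medium compares neither of these libraries. Leaving 1 of them out removes its group's spread from the fit's shared estimate, so a smaller p there is no independent support. Differentiation in normoxia had 3 calls without normoxic differentiation replicate B and 4 without replicate A, and hypoxia in differentiation medium had 2 and 3.

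**Figure D1:**
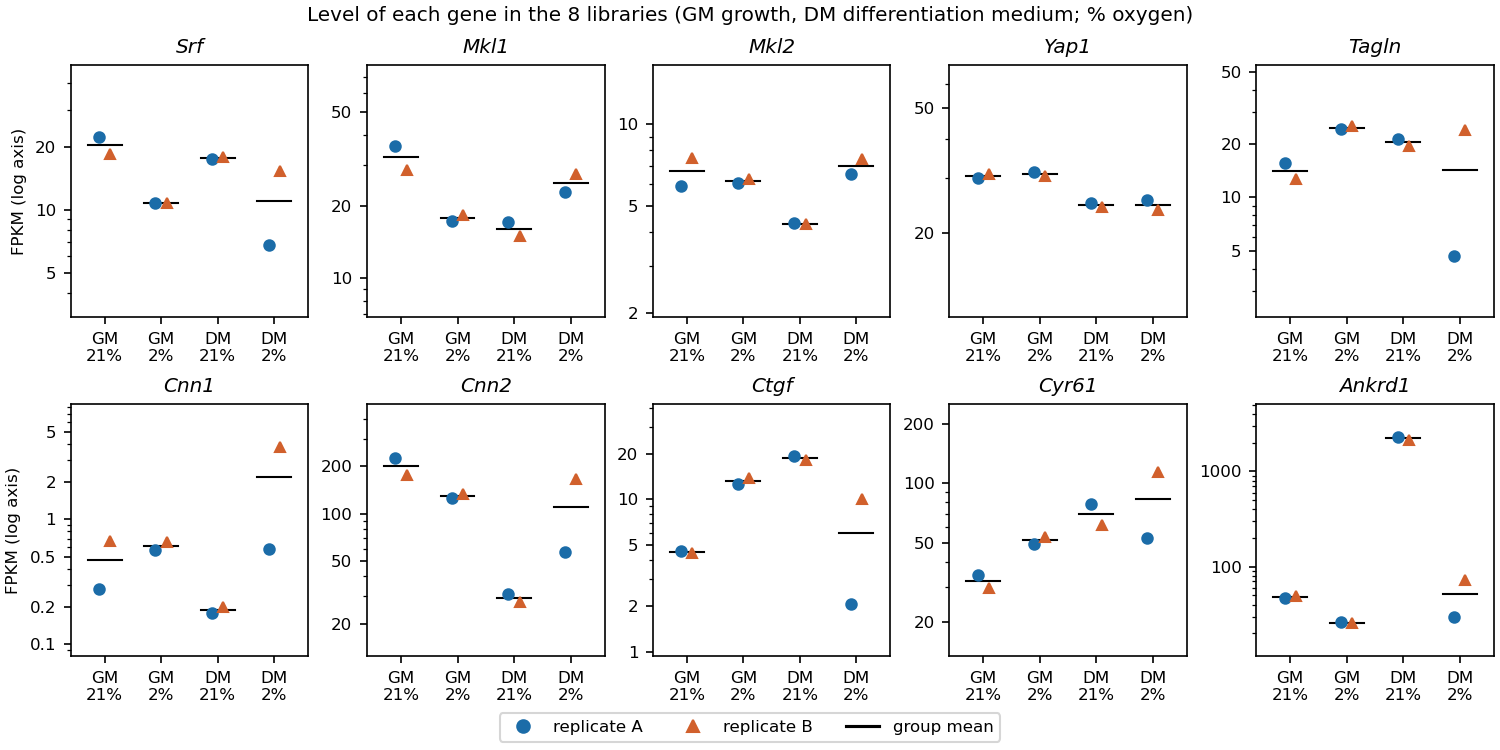
Level of each of the 10 genes (FPKM, log axis) in growth (GM) and differentiation (DM) medium at 21% and 2% oxygen, with replicate A as circles, replicate B as triangles and the group mean as a line. Ankrd1 stands at 2309 and 2159 FPKM in normoxic differentiation medium and at 73.0 or less in the other libraries, and the 2 libraries of hypoxic differentiation medium lie far apart for 7 of the 10 genes.

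Srf, which encodes the factor itself, was lower at 2% oxygen in both media without passing the threshold in either. It stood at 22.2 and 18.5 FPKM (replicates A and B) in normoxic growth medium, 17.5 and 17.8 after differentiation in normoxia, 10.7 and 10.7 in hypoxic growth medium, and 6.75 and 15.3 in hypoxic differentiation medium. Every hypoxic library lay below every normoxic one. The means differed 1.91-fold in growth medium (log2 change -0.86 ± 0.31, SE, adjusted p 0.0655) and 1.60-fold in differentiation medium (-0.73 ± 0.31, adjusted p 0.0782). In growth medium the change passed when the fit held the growth medium libraries alone (adjusted p 0.00162). It stayed at -0.86 without hypoxic differentiation replicate A or B, since neither is in that comparison. In differentiation medium the change was -0.19 without replicate A (adjusted p 0.190) and -1.27 without replicate B (1.66e-04), and it passed after median-of-ratios scaling at -0.93 (0.0199) and after upper-quartile scaling at -0.78 (0.0370). The medium change of Srf in normoxia was small and not called (-0.19 ± 0.31, adjusted p 0.616, and 0.07 after median-of-ratios scaling), although the libraries of the 2 groups did not overlap. In hypoxia the medium change was -0.05 ± 0.31 (adjusted p 0.914), and it was 0.48 without hypoxic differentiation replicate A (0.0168) and -0.59 without replicate B (0.00938). Because RNA was pooled over all cells of a culture, fewer cells with a transcript and less of it per cell cannot be told apart, here and below.

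Mkl1, the coactivator gene, followed a crossed pattern in which each oxygen level had its own direction. Its levels were 35.8 and 28.6 FPKM in normoxic growth medium, 17.1 and 15.0 after differentiation in normoxia, 17.4 and 18.4 in hypoxic growth medium, and 23.0 and 27.5 in hypoxic differentiation medium. No group overlapped with another. It fell 2.01-fold with differentiation in normoxia (-0.96 ± 0.14, adjusted p 9.27e-04), and 1.80-fold with hypoxia in growth medium (-0.80 ± 0.14, adjusted p 0.00454). Hypoxia in differentiation medium went with a 1.57-fold higher level (0.62 ± 0.14, adjusted p 0.00689, but 0.0557 at 0.53 without normoxic differentiation replicate B). Differentiation in hypoxia gave 0.47 ± 0.14 (adjusted p 0.0355), a call lost without either hypoxic growth library (0.153 and 0.116 without A and B), without either normoxic differentiation library (0.0619 and 0.0626) and without hypoxic differentiation replicate B (0.105). The interaction was 1.43 ± 0.20 (adjusted p 0.00123), at 1.40 in the A and 1.45 in the B libraries. It was called in each alternative fit and with each library left out.

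Mkl2, the second coactivator gene, was the less abundant of the pair and moved in fewer comparisons. It was at 5.91 and 7.50 FPKM in normoxic growth medium, 4.32 and 4.26 after differentiation in normoxia, 6.08 and 6.25 in hypoxic growth medium, and 6.56 and 7.45 in hypoxic differentiation medium. Normoxic differentiation medium alone lay below all other libraries. The fall with differentiation in normoxia was 1.56-fold (-0.54 ± 0.13, adjusted p 0.00899), and it missed the threshold with median-of-ratios scaling (-0.30, adjusted p 0.0618) and without normoxic differentiation replicate A (0.0510) or B (0.0564). Hypoxia in differentiation medium gave a 1.63-fold rise (0.60 ± 0.13, adjusted p 0.00566). The remaining order of levels, from hypoxic differentiation medium (mean 7.0) through normoxic growth medium (6.71) to hypoxic growth medium (6.17), is one in which neighbours overlap. Its interaction of 0.69 ± 0.18 (adjusted p 0.0167) fell to 0.42 after median-of-ratios scaling (0.0813) and missed the threshold without hypoxic growth replicate A (0.0607) or B (0.0532) and without normoxic differentiation replicate A (0.0605) or B (0.0652).

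Among 16 written cofactors of SRF and regulators of the actin-coactivator switch, 15 were tested. With differentiation in normoxia 3 rose and 6 fell, with a median log2 change of -0.19 beside -0.20 for all tested genes, of which 25.5% rose and 41.0% fell. Abra encodes a muscle protein that binds actin and activates SRF. It was at 64.7 and 54.0 FPKM in normoxic differentiation medium and is listed at 0 in the other 6 libraries, so it entered the test through that group only. Elk3, a ternary complex factor, fell from 32.3 and 31.2 FPKM in normoxic growth medium to 7.37 and 6.99 in normoxic differentiation medium (-2.0 ± 0.09, adjusted p 4.78e-06) and was at 21.0 and 23.8 in hypoxic differentiation medium. Cofilin 1 (Cfl1), which severs actin filaments, fell with normoxic differentiation (-1.41 ± 0.12, adjusted p 7.11e-05) while its muscle paralog Cfl2 rose (1.56 ± 0.12, adjusted p 5.39e-05). In differentiation medium 6 of the 15 rose and 4 fell with hypoxia, beside 37.5% and 27.7% of all genes, although median-of-ratios scaling gave 4 and 5, and 3 and 3 were left without normoxic differentiation replicate B. Cfl1 was at 1297 and 1467 FPKM there, against 352 and 329.6 in normoxia (2.01 ± 0.12, adjusted p 1.37e-05). Myocardin (Myocd), the coactivator of smooth and cardiac muscle, was listed at 0 in 7 libraries and at 0.0143 FPKM in the eighth.

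Yap1 varied least among the 10 genes. Its levels were 29.9 and 30.9 FPKM in normoxic growth medium, 24.9 and 24.1 after differentiation in normoxia, 31.2 and 30.3 in hypoxic growth medium, and 25.5 and 23.6 at 2% oxygen in differentiation medium. All differentiation medium libraries lay below all growth medium libraries, and within a medium the oxygen groups overlapped. The medium change was -0.30 ± 0.07 in normoxia (adjusted p 0.0111) and -0.32 ± 0.07 in hypoxia (adjusted p 0.0163), about 1.24-fold and 1.26-fold. The normoxic value is close to the median of all genes. It became -0.03 (adjusted p 0.803) after median-of-ratios and -0.17 (0.186) after upper-quartile scaling, and -0.28 (0.0667) without normoxic differentiation replicate B. The hypoxic value was lost without hypoxic growth replicate A (-0.30, adjusted p 0.102) or B (-0.34, 0.0765). For oxygen the changes were 0.02 ± 0.07 in growth medium (adjusted p 0.873) and 0.00 ± 0.07 in differentiation medium (adjusted p 0.998), so any change in Yap1 mRNA with oxygen was within the spread of the replicates. Over the alternative fits they ran from -0.01 to 0.18 and from -0.20 to 0.05, and none was called.

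Several genes of the TEAD factors that YAP works through had larger changes than Yap1. Tead4, the family member known from muscle differentiation, rose from 2.33 and 2.38 FPKM in normoxic growth medium to 39.3 and 42.1 in normoxic differentiation medium (3.63 ± 0.15, adjusted p 3.76e-06) and was at 1.34 and 1.89 in hypoxic differentiation medium (-4.00 ± 0.15, adjusted p 2.25e-06). Vgll2, a muscle cofactor of TEADs, showed the same order, with 11.1 and 10.3 FPKM in normoxic differentiation medium and at most 0.837 elsewhere. Tead2 ran the other way: it fell from 34.8 and 29.5 FPKM to 10.3 and 9.61 with differentiation in normoxia (-1.59 ± 0.15, adjusted p 1.41e-04) and to 9.65 and 11.1 with hypoxia in growth medium (-1.54 ± 0.15, adjusted p 5.26e-04). Tead1, at 20.0 and 24.5 FPKM in normoxic growth medium, was lower in hypoxia in both media (-0.76 ± 0.15, adjusted p 0.00698, and -1.16 ± 0.15, adjusted p 5.00e-04). TAZ (Wwtr1), the paralog of YAP, stood at 43.7 and 44.4 FPKM in normoxic and 19.9 and 22.9 FPKM in hypoxic differentiation medium (-1.01 ± 0.12, adjusted p 3.30e-04), and its interaction of -0.86 ± 0.17 (adjusted p 0.00509) stands beside -0.02 ± 0.11 for Yap1 (adjusted p 0.896). That of Yap1 ran from -0.33 to 0.04 over the alternative fits, and the 2 interactions were not tested against each other. Over the 23 Hippo pathway genes and TEAD factors, 6 rose and 9 fell with differentiation in normoxia (median -0.25), shares near the 25.5% and 41.0% of all genes (median -0.20), or 10 and 7 after median-of-ratios scaling and 3 and 6 without normoxic differentiation replicate B. In differentiation medium 10 rose and 8 fell with hypoxia (median 0.16), beside 37.5% and 27.7% of all genes (median 0.15), or 7 and 9 after median-of-ratios scaling. Sav1, the scaffold of the Hippo kinases, was among those that rose (1.5 ± 0.11, adjusted p 4.10e-05). Of the 23, Wwc1 passed the filter only through hypoxic differentiation medium and Vgll2 only through normoxic differentiation medium. Both are in the counts for hypoxia in differentiation medium, and their directions there add no support.

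Tagln, Cnn1 and Cnn2 encode actin-binding proteins of the calponin family, the first 2 known as smooth muscle genes. They did not move together. Cnn2 carried the largest fall with differentiation of the 10 genes. It was at 226 and 175 FPKM in normoxic growth medium, 30.8 and 27.4 after differentiation in normoxia, 126 and 134 in hypoxic growth medium, and 57.0 and 166 in hypoxic differentiation medium. Normoxic differentiation medium lay below all other libraries. The fall in normoxia was -2.73 ± 0.44 (adjusted p 0.00148), and it was called in every alternative fit. Hypoxia in differentiation medium went with a 3.82-fold higher mean (1.71 ± 0.44, adjusted p 0.0124). That change was 2.47 without hypoxic differentiation replicate A and 0.95 without B, called both times (adjusted p 5.42e-05 and 0.00225), while it missed the threshold without normoxic differentiation replicate A (0.0545) or B (0.0741) and with the differentiation medium libraries alone (0.0559). The interaction of Cnn2 was 2.32 ± 0.62 (adjusted p 0.0184), and it ran from 1.56 to 3.08 with a library left out. It missed the threshold without normoxic growth replicate A (0.0688), hypoxic growth replicate A (0.0582) or B (0.0533), or normoxic differentiation replicate A (0.0576) or B (0.0723).

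Tagln levels were 15.5 and 12.7 FPKM in normoxic growth medium, 21.3 and 19.3 after differentiation in normoxia, 24.1 and 24.9 in hypoxic growth medium, and 4.71 and 23.8 in hypoxic differentiation medium. The first 3 groups did not overlap, and the last spanned nearly the whole range of the gene. No change of Tagln passed the threshold, and the SE was 0.59 in each comparison of 2 groups. For hypoxia in growth medium the fitted change was 0.76 (adjusted p 0.341), and for differentiation in normoxia it was 0.50 (adjusted p 0.481). Neither comparison holds hypoxic differentiation medium, whose spread enters both p values through the shared estimate. Both changes passed with only the libraries compared. For hypoxia in differentiation medium the value was 0.22 without hypoxic differentiation replicate A and -1.90 without replicate B, so a single library set the direction.

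Cnn1 was the least abundant of the 10 genes. It was at 0.279 and 0.672 FPKM in normoxic growth medium, 0.177 and 0.198 after differentiation in normoxia, 0.570 and 0.661 in hypoxic growth medium, and 0.580 and 3.82 in hypoxic differentiation medium. A level above 1 FPKM was reached only in the last of these 8 libraries. No change of Cnn1 was called. For hypoxia in differentiation medium the change came to 1.22 (adjusted p 0.0540). It was 2.02 without hypoxic differentiation replicate A and not tested without replicate B, when Cnn1 no longer met the filter. It passed with a pseudocount of 0.1 FPKM at 2.51 (0.0245), after median-of-ratios scaling at 1.15 (0.0494) and after upper-quartile scaling at 1.18 (0.0455). Each of these fits holds replicate B, the library through which Cnn1 met the filter, so the passes add no support for a rise. Relatives of these genes were more abundant. Transgelin 2 (Tagln2) fell with differentiation in normoxia from 261 and 229 to 112 and 98.4 FPKM (-1.21 ± 0.18, adjusted p 0.00101). Calponin 3 (Cnn3) was lower in hypoxia in both media, at 135 and 128 FPKM against 312 and 297 in growth medium (-1.20 ± 0.08, adjusted p 1.20e-04) and at 144 and 135 against 277 and 261 in differentiation medium (-0.94 ± 0.08, adjusted p 7.03e-05).

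Of 20 other cytoskeletal targets of SRF and its actin-regulated coactivators, all tested, 3 rose and 12 fell with differentiation in normoxia, with a median change of -1.30 beside -0.20 for all genes, of which 25.5% rose and 41.0% fell. The counts were the same after both rescalings. The 2 largest rises were those of the tropomyosins Tpm2 (2.80 ± 0.17, adjusted p 1.84e-05) and Tpm1 (1.93 ± 0.17, adjusted p 9.77e-05), which include the sarcomeric forms. The largest falls were those of testin (Tes), a focal adhesion protein that went from 57.0 and 62.3 to 6.06 and 5.71 FPKM (-3.14 ± 0.08, adjusted p 3.85e-07), and of cytoplasmic γ-actin (Actg1), from 1314 and 1088 to 296 and 277 FPKM (-2.06 ± 0.20, adjusted p 1.35e-04). With hypoxia in differentiation medium 9 rose and 5 fell (median 0.43 beside 0.15 for all genes, of which 37.5% rose and 27.7% fell). Here Tes stood at 72.1 and 73.8 FPKM (3.43 ± 0.08, adjusted p 2.62e-07), and Tpm1 and Tpm2 fell (-2.65 ± 0.17, adjusted p 2.36e-05, and -2.58 ± 0.17, adjusted p 2.43e-05). The interaction was positive for 10 and negative for 2, beside 35.4% and 18.7% of all genes, with Tes (4.03 ± 0.11) and filamin A (Flna, 1.99 ± 0.15) highest. These shares of all genes depend on scaling. Median-of-ratios scaling moved the positive part of all interaction calls from 65.5% to 47.3%. For hypoxia in differentiation medium it moved the higher part from 57.5% to 46.5%. All 20 genes were higher in hypoxic differentiation replicate B than in A. In hypoxic growth medium 8 fell and none rose, beside 28.0% and 13.5% of all genes. That count was 14 without hypoxic differentiation replicate A or B and 3 to 5 without any one of the other 6 libraries. The smooth muscle actin gene Acta2 was lowest in hypoxic growth medium, at 68.4 and 66.5 FPKM against 315 and 239 in normoxia (-2.01 ± 0.51, adjusted p 0.0202, up to 0.110 with a library left out). For differentiation in hypoxia 3 rose and 3 fell, beside 23.3% and 17.6% of all genes, against 13 higher and 3 lower without hypoxic differentiation replicate A and 3 higher and 9 lower without replicate B. The RefSeq windows of 17 of the 20 genes were matched, and 29.4% of these hold a CArG box, beside 1.81% of all genes. GGAATG was found in 29.4% of them as well, beside 16.6% of all genes.

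**Figure D2:**
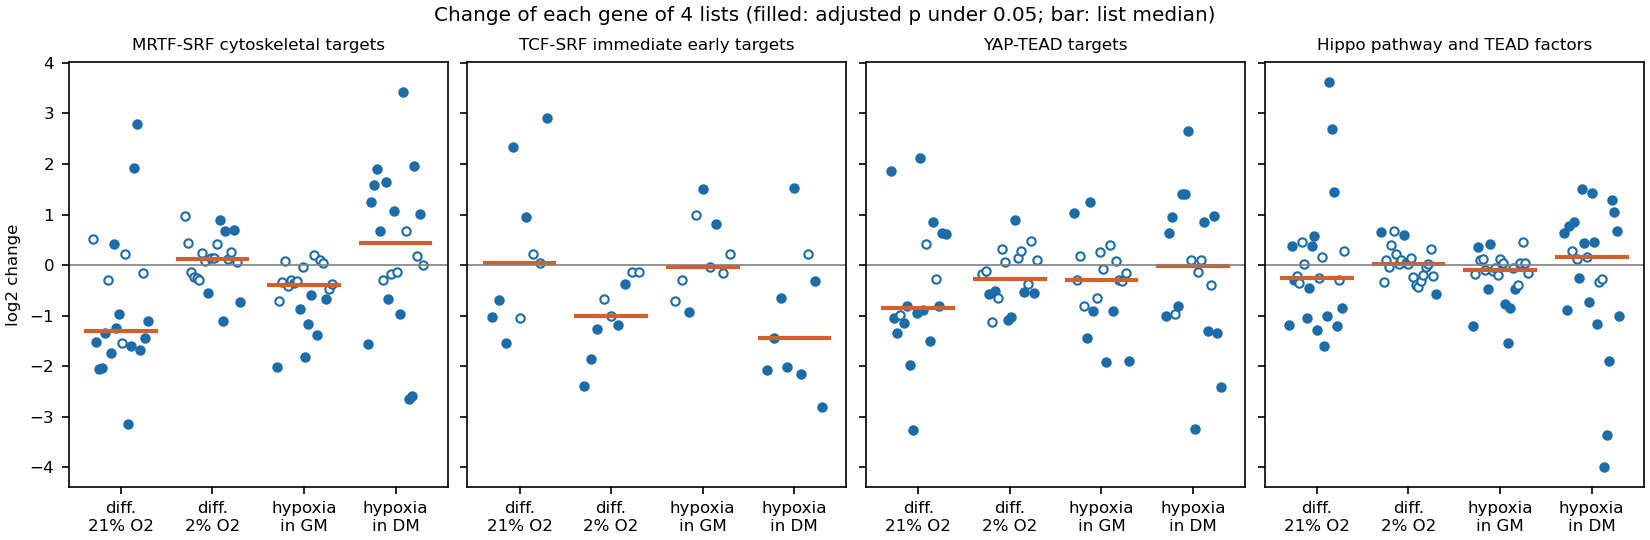
Fitted log2 change of each tested gene of 4 lists in 4 comparisons, filled where the adjusted p was under 0.05, with the list's median as a bar. The cytoskeletal SRF targets have their median at -1.30 for differentiation in normoxia and at 0.43 for hypoxia in differentiation medium, and the immediate early targets at 0.04 and -1.45.

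The immediate early targets of SRF and ternary complex factors, 9 tested of 10 written, had another pattern. With differentiation in normoxia 3 rose and 3 fell (median 0.04), beside 25.5% and 41.0% of all genes (median -0.20), and 5 rose and 3 fell under median-of-ratios scaling. Nr4a1, an orphan nuclear receptor, rose from 3.69 and 2.78 to 33.8 and 27.4 FPKM (2.90 ± 0.34, adjusted p 3.24e-04), and Fos rose from 2.10 and 1.75 to 15.6 and 12.0 FPKM (2.33 ± 0.33, adjusted p 8.55e-04). With hypoxia in differentiation medium 7 fell and 1 rose, with a median of -1.45, beside 27.7% and 37.5% of all genes and a median of 0.15. Fos was then at 1.51 and 4.36 FPKM (-2.01 ± 0.33, adjusted p 0.00177), and Ier2, a growth factor response gene, fell from 127 and 124 to 23.6 and 31.8 FPKM (-2.16 ± 0.16, adjusted p 4.55e-05). The gene that rose was Fosl1, which encodes a partner of Jun, at 16.8 and 43.3 against 10.3 and 7.34 FPKM (1.53 ± 0.39, adjusted p 0.0125, but up to 0.0872 with a library left out). Egr1, which encodes a zinc finger factor, was lower with differentiation in hypoxia (-2.39 ± 0.32, adjusted p 0.00208), at 2.84 and 7.12 FPKM against 28.3 and 28.2. The interaction was negative for 6 of the 9 and positive for none, beside 18.7% and 35.4% of all genes. In hypoxic differentiation medium all 9 were higher in replicate B than in A, 5 of them over 2-fold (median ratio 2.51). The sizes of changes that involve this group therefore depend on the replicate.

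Ctgf, Cyr61 and Ankrd1 are the genes most often read as YAP targets, and each had its own pattern. Ctgf, which encodes a secreted matricellular protein of the CCN family, was at 4.60 and 4.42 FPKM in normoxic growth medium, 19.2 and 18.1 after differentiation in normoxia, 12.7 and 13.8 in hypoxic growth medium, and 2.06 and 9.98 in hypoxic differentiation medium. Normoxic differentiation medium and hypoxic growth medium both lay above normoxic growth medium with no overlap, while the libraries of hypoxic differentiation medium lay on either side of it. Differentiation in normoxia gave 1.83 ± 0.52 (adjusted p 0.0179), and hypoxia in differentiation medium gave -1.76 ± 0.52 (adjusted p 0.0212). Both calls were lost when a normoxic differentiation library was left out (0.0857 and 0.0791 for the first change without A and B, 0.0961 and 0.0885 for the second), and the first also without normoxic growth replicate A (0.0729) or B (0.0758). Hypoxia in growth medium gave 1.37 ± 0.52 (adjusted p 0.0741), which passed with only the libraries compared and at 1.46 after median-of-ratios scaling (0.0469). The interaction was -3.13 ± 0.73 (adjusted p 0.0108), between -2.20 without hypoxic differentiation replicate A and -4.05 without replicate B, and called both times.

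Cyr61, which encodes another CCN protein, differed from Ctgf in hypoxic differentiation medium. Its levels were 34.2 and 29.5 FPKM in normoxic growth medium, 78.4 and 61.5 after differentiation in normoxia, 49.5 and 53.4 in hypoxic growth medium, and 52.7 and 114 in hypoxic differentiation medium. Normoxic growth medium lay below all other libraries, and the differentiation groups overlapped. Differentiation in normoxia gave 1.10 ± 0.33 (adjusted p 0.0229), lost when any library of those 2 groups was left out (adjusted p 0.0596 to 0.128). Hypoxia in growth medium gave 0.68 ± 0.33 (adjusted p 0.146), which passed with only the libraries compared. In differentiation medium the oxygen change was 0.16 ± 0.33 (adjusted p 0.689). It was 0.71 without hypoxic differentiation replicate A, -0.39 without replicate B and -0.05 after median-of-ratios scaling (0.898). Of the other CCN genes, Wisp2 fell with hypoxia in growth medium (-1.75 ± 0.17, adjusted p 5.03e-04) and differentiation medium (-1.74 ± 0.17, adjusted p 1.57e-04), from 14.5 and 9.73 to 2.87 and 2.81 FPKM in the former. Wisp1 rose with differentiation in normoxia (0.54 ± 0.08, adjusted p 0.00101) and in hypoxia (0.94 ± 0.08, adjusted p 5.32e-04). Wisp3 was listed at 0 in all libraries.

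Ankrd1, a muscle ankyrin repeat protein that sits at the sarcomere and in the nucleus, had the largest changes of the 10 genes. It was at 46.5 and 49.2 FPKM in normoxic growth medium, 2309 and 2159 after differentiation in normoxia, 26.4 and 25.5 in hypoxic growth medium, and 29.4 and 73.0 in hypoxic differentiation medium. The means rose 46.7-fold with differentiation in normoxia (5.52 ± 0.36, adjusted p 2.53e-05) and were 43.7-fold lower in hypoxia than in normoxia in differentiation medium (-5.56 ± 0.36, adjusted p 2.35e-05). The interaction was -4.70 ± 0.51 (adjusted p 4.44e-04), at -5.46 in the A and -3.94 in the B libraries. These 3 changes were called in every alternative fit and with each library left out. Differentiation in hypoxia gave 0.82 ± 0.36 (adjusted p 0.115), 1.46 without hypoxic differentiation replicate A (1.79e-04) and 0.17 without replicate B (0.133). Hypoxia in growth medium gave -0.86 ± 0.36 (adjusted p 0.10), which passed with only the libraries compared. The 2 other muscle ankyrin repeat genes were also highest in normoxic differentiation medium. Ankrd2 was at 158 and 151 FPKM in normoxic differentiation medium and at most 0.457 elsewhere, and Ankrd23 at 110.3 and 90.8 against at most 1.81. Ankrd2 entered the test through that group only. The markers of differentiated muscle ran alongside: Ckm, Myh3 and Acta1 were at 399.7 and 421, 149.8 and 146, and 2299 and 2235 FPKM in normoxic differentiation medium and at most 1.23, 1.24 and 9.36 elsewhere. Their part in the Ankrd1 change was not tested.

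The 18 tested of 19 other YAP and TEAD targets went in both directions. With differentiation in normoxia 5 rose and 10 fell (median -0.85 beside -0.20 for all genes, of which 25.5% rose and 41.0% fell), and 6 and 10 after either rescaling. Gadd45a, a growth arrest gene, rose from 85.6 and 73.1 to 347 and 350.3 FPKM (2.12 ± 0.21, adjusted p 1.73e-04), and Amotl2, which encodes an angiomotin that binds YAP, rose from 29.5 and 28.2 to 108 and 107 FPKM (1.86 ± 0.16, adjusted p 7.95e-05). Tissue factor (F3) fell from 35.2 and 34.6 to 3.17 and 2.44 FPKM (-3.25 ± 0.23, adjusted p 3.30e-05), and the membrane repair gene Myof fell from 63.9 and 73.3 to 23.5 and 23.7 FPKM (-1.5 ± 0.10, adjusted p 2.45e-05). With hypoxia in differentiation medium 7 rose and 6 fell (median -0.01 beside 0.15), near the 37.5% and 27.7% of all genes. F3 was at 29.8 and 17.6 FPKM there (2.66 ± 0.23, adjusted p 7.80e-05), Gadd45a at 28.1 and 46.7 (-3.23 ± 0.21, adjusted p 2.61e-05), and Tgfb2, a growth factor gene, at 1.47 and 1.55 against 12.2 and 12.4 (-2.41 ± 0.10, adjusted p 3.73e-06). Amotl2, like Ctgf highest in normoxic differentiation medium, was higher with hypoxia in growth medium (1.03 ± 0.16, adjusted p 0.00284), and lower with hypoxia in differentiation medium (-1.0 ± 0.16, adjusted p 0.00142), with an interaction of -2.03 ± 0.22 (adjusted p 4.74e-04). In hypoxic growth medium 2 rose and 5 fell, near the 13.5% and 28.0% of all genes, or 5 and 10 without hypoxic differentiation replicate A and 4 and 10 without replicate B. For differentiation in hypoxia 1 rose and 6 fell, beside 23.3% and 17.6% of all genes, or 3 and 10 without replicate B and 1 and 2 or 1 and 3 without hypoxic growth replicate A or B. The GGAATG element was found in 38.5% of the 13 genes of this list with a window, and the CArG box in none of them. GGAATG did not set this list apart. Its share was 29.4% in the cytoskeletal SRF targets, 50% in the immediate early targets and 35% in the Hippo pathway genes and TEAD factors. It was 42.9% in the family relatives of the 10 genes and 0% in the SRF cofactors and actin regulators, beside 16.6% of all genes.

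**Figure D3:**
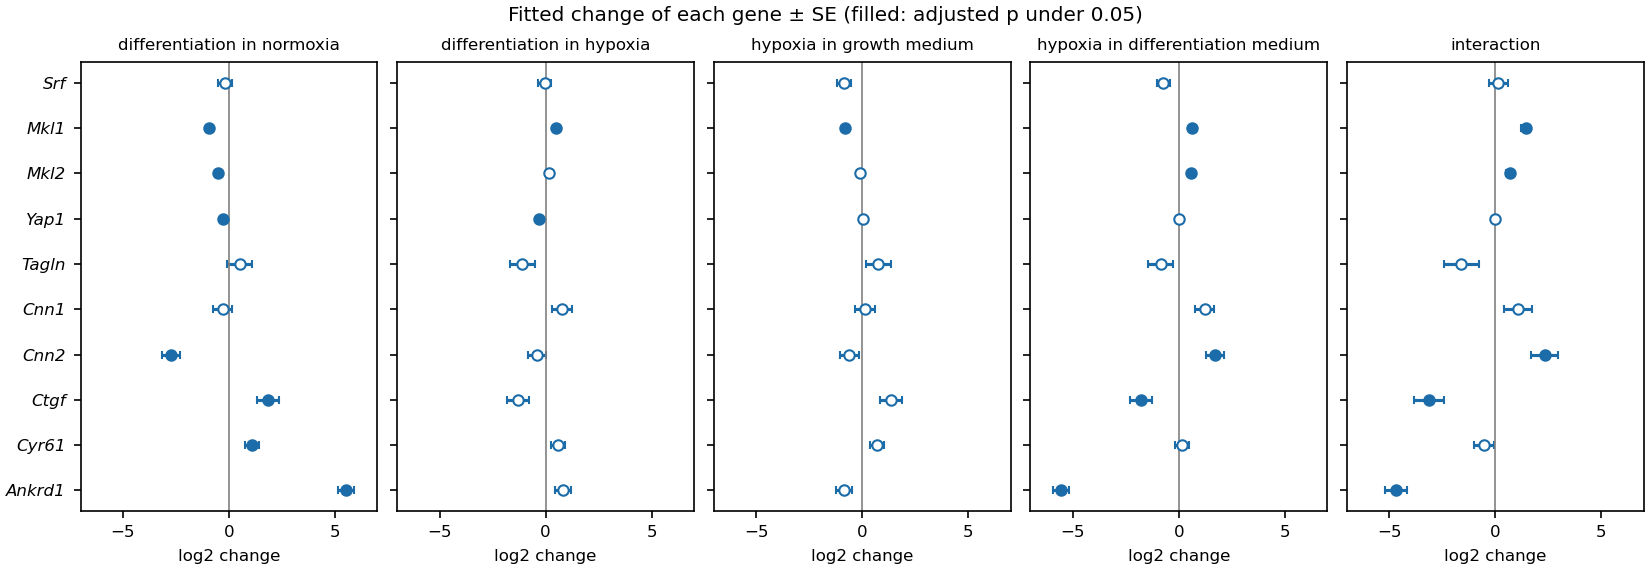
Fitted log2 change ± SE of the 10 genes in the 5 comparisons, filled where the adjusted p was under 0.05. Ankrd1 lies at 5.52 for differentiation in normoxia and at -5.56 for hypoxia in differentiation medium, and the filled points of the interaction are Mkl1, Mkl2 and Cnn2 above 0 and Ctgf and Ankrd1 below 0.

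Across the 4 groups, Mkl1, Mkl2, Cnn1 and Cnn2 were lowest in normoxic differentiation medium without overlap. Ctgf and Ankrd1 were highest there without overlap. Over the 8 libraries, which share 4 groups and are not independent points, Pearson's r of log2(FPKM + 1) was 0.80 between Mkl2 and Cnn2, 0.75 between Mkl1 and Cnn2, -0.81 between Cnn2 and Ankrd1 and -0.85 between Mkl2 and Ankrd1. Other pairs of these genes were less close, from -0.08 for Cnn1 and Ctgf to -0.71 for Mkl1 and Ctgf, with -0.41 for Cnn2 and Ctgf. Tagln and Ctgf were the closest pair of targets (r 0.85), while Srf had no r above 0.47 with any of the other 9. Among tested genes with a mean of at least 10 FPKM in a group, those most like each gene over the 8 libraries were as follows. Cnn2 was most like Cdca4 (r 0.997), Meaf6 (0.996) and Csrp1 (0.994), the last of which encodes an actin-bound LIM protein at 228 FPKM in normoxic growth medium and 48.6 in normoxic differentiation medium on average. Ankrd1 was most like Mmachc (0.999), muscle glycogen phosphorylase (Pygm, 0.999) and the chemokine gene Cxcl10 (0.998). Srf was most like Cdk18 (0.989), Cdip1 (0.989) and Lpin3 (0.983), and Mkl1 like Rpp25l (0.988), Sppl2b (0.983) and Gpx1 (0.982). For Mkl2 they were Chd8 (0.984), Lpin2 (0.977) and Rtf1 (0.974), and for Yap1 Xpa (0.992), Gprc5b (0.992) and Dhx40 (0.990). Tagln was most like the phosphatase gene Dusp1 (0.978), Klf10 (0.970) and Snora16a (0.917), and Ctgf like Tbc1d31 (0.961), Arntl (0.956) and Samd4 (0.938). The nearest to Cyr61 were Cd80 (0.972), Carhsp1 (0.966) and Epha2 (0.957), and to Cnn1 Ubr7 (0.984), Pak2 (0.982) and Ppm1d (0.978).

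The 2 libraries of hypoxic differentiation medium differed for most of these genes. Replicate B was above replicate A for 9 of the 10, where 63.2% of all tested genes were, and more than 2-fold above it for 7 of the 10, where 8.23% of all genes were. None of the 10 was more than 2-fold lower, where 1.78% of all genes were. The ratio of B to A was 6.59 for Cnn1, 5.06 for Tagln, 4.85 for Ctgf, 2.90 for Cnn2, 2.48 for Ankrd1, 2.27 for Srf and 2.17 for Cyr61. The factors' partners differed little, with 1.19 for Mkl1, 1.13 for Mkl2 and 0.926 for Yap1. The median of the 10 was 2.38, beside 1.08 for all tested genes. Among the lists, all 20 cytoskeletal SRF targets were higher in B, 4 of them over 2-fold (median ratio 1.49), and all 9 immediate early targets were, 5 of them over 2-fold (median 2.51). Of the 18 YAP and TEAD targets 11 were higher and 2 over 2-fold (median 1.19). Proliferation markers moved with this difference: all 5 were over 2-fold higher in B (median 6.71), and Mki67 was at 3.46 FPKM in A and 23.6 in B. Of the 6 myoblast and myotube markers 1 was higher in B (median 0.629). In the other 3 groups no gene of the 10 differed 2-fold between replicates except Cnn1 in normoxic growth medium (2.41), where 1.79% to 2.02% of all tested genes did. The shallower library was B. The part of proliferation and of depth in the difference was not tested.

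**Figure D4:**
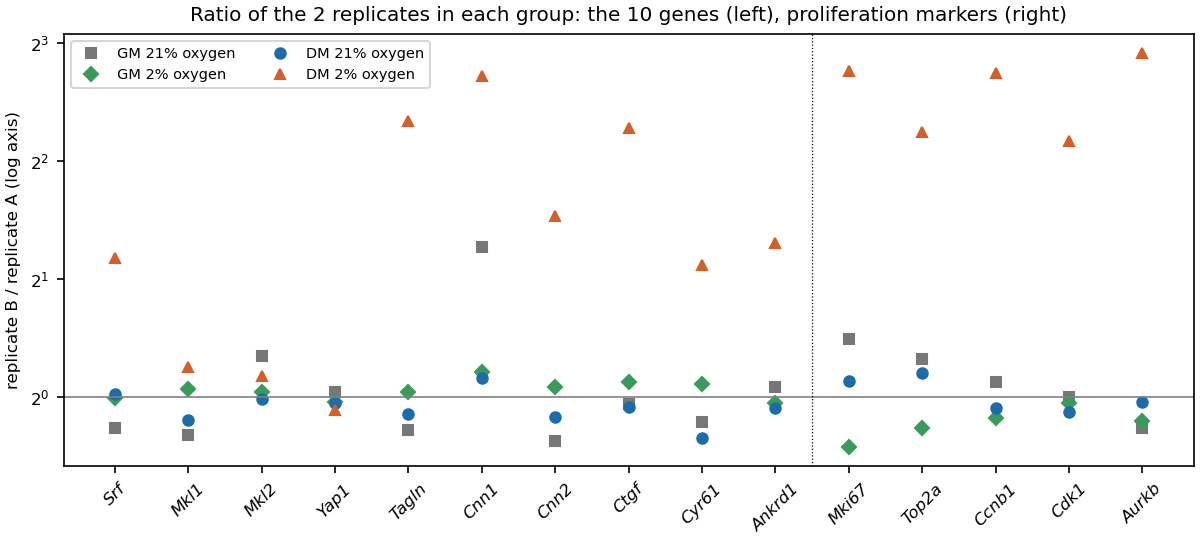
Ratio of replicate B to replicate A (log axis) in each group for the 10 genes and, right of the dotted line, for 5 proliferation markers. In hypoxic differentiation medium (triangles) 7 of the 10 genes and all 5 markers lie above 2-fold, while Mkl1, Mkl2 and Yap1 are at 1.19, 1.13 and 0.926.

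Several of these genes are better known from cells other than myoblasts, and markers of such cells were read in the same libraries. Of 8 smooth muscle markers, the defining genes Myh11 (at most 0.0891 FPKM) and Myocd (at most 0.0143) were near 0 in every library. The summed level of the 8 was 609.9 and 492 FPKM in normoxic growth medium, 946 and 927 after differentiation in normoxia, 243 and 252 in hypoxic growth medium, and 172 and 410.1 in hypoxic differentiation medium, most of it from desmin (Des) and Acta2, which myoblasts also express. Smtn was higher with hypoxia in growth medium, at 85.5 and 90.6 against 38.8 and 36.5 FPKM (1.20 ± 0.09, adjusted p 2.12e-04). It was also higher in differentiation medium (1.33 ± 0.09, adjusted p 3.11e-05). Synpo2 was at 34.1 and 33.6 FPKM there in normoxia and at most 9.56 elsewhere. Of the 6 tested, 2 rose and 4 fell with hypoxia in differentiation medium (37.5% and 27.7% of all genes). Lmod1, which fell, passed the filter only through normoxic differentiation medium. The 4 endothelial markers summed to at most 0.156 FPKM and the 5 adipocyte markers to at most 1.18. Of 4 osteoblast markers 3 were under a mean of 1 FPKM in every group, and Bglap was at 93.1 and 75.5 FPKM in normoxic differentiation medium. Among 4 macrophage markers, Cd68, also a lysosomal gene, was at 25.8 and 42.8 FPKM in hypoxic differentiation medium and at most 3.57 elsewhere, while Emr1 was at 0 in all libraries and Ptprc at 0 in 7 of them. The summed proliferation markers were 150.3 and 166 FPKM in normoxic growth medium, 28.5 and 29.0 after differentiation in normoxia, 92.3 and 79.6 in hypoxic growth medium, and 23.9 and 137 in hypoxic differentiation medium, an order close to that of Cnn2, and their part in that gene's changes was not tested.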

How the data were processed

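Total RNA libraries from 8 cultures were sequenced after a stranded protocol, per the labels' protocols. The submitters' processing notes name STAR 2.5.1b, Cufflinks 2.2.1 and the build mm9. The authors deposited 1 gene table in FPKM, and its annotation and any scaling between libraries are not given in the sources used here. Columns were matched to samples by title. Values were log2(FPKM + 1) transformed, genes whose mean reached 1 FPKM in some group were kept (12389 of 17914 above 0), and limma 3.58.1 (R 4.3.3, eBayes with trend, two-sided) was fitted to all 8 libraries with 4 group means (4 residual and 2.61 prior degrees of freedom). The script was tested on simulated data. Depth is known only relatively, from the smallest steps of low values. Named genes are the 10 genes, the paralogs, up to 2 rises and 2 falls per list and comparison (called, and reaching a group mean of 10 FPKM), and the 3 most like genes, with a few other listed genes named after their values were seen (Tead1, Fos and Amotl2 among them). The genes and lists were chosen with earlier results of these data known. Replicates correlated at 0.958 to 0.983. Alternatives were other scalings, pseudocount, filter, weights, library subsets and a replicate block.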

Additional observations from a re-analysis of the deposited data

Results flagged for a closer look

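For 5 of the 10 genes the interaction of medium and oxygen in limma passed an adjusted p of 0.05 with all 8 libraries. The interaction was 1.43 for Mkl1, 0.69 for Mkl2 and 2.32 for Cnn2, whose levels fell with differentiation in normoxia. It was -3.13 for Ctgf and -4.70 for Ankrd1, whose levels rose with differentiation in normoxia. The call for Cnn2 was lost with any one of 5 libraries left out (adjusted p up to 0.0723), and that for Mkl2 with any one of 4 and under median-of-ratios scaling (0.42, adjusted p 0.0813). An interaction of this kind was called for 54.1% of all tested genes.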

How the results depend on the processing

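Counts of called genes among the 10 moved as follows, and the cause was not tested beyond the fits themselves. With 1 library left out in turn the count ranged from 3 to 8 for differentiation in normoxia (7 with all libraries), 0 to 7 for differentiation in hypoxia (2), 1 to 7 for hypoxia in growth medium (1), 3 to 8 for the interaction (5) and 2 to 7 for hypoxia in differentiation medium (5). A group left with 1 library is assumed to vary like the others. For differentiation in hypoxia the count was 1 with no filter, 1 with array quality weights and 0 with only the libraries compared. For hypoxia in growth medium it was 2 after either rescaling, 5 with quality weights and 7 with only the libraries compared. For hypoxia in differentiation medium it was 3 with only the libraries compared.

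The letters A and B carried no large difference shared between groups: the correlation between groups of the B minus A differences over 12389 genes ran from -0.17 to 0.04. That cannot show whether the libraries were made in pairs. With the letter as a replicate block, 1 gene was called for differentiation in hypoxia, 7 and 1 for differentiation in normoxia and hypoxia in growth medium, 5 for the interaction and 6 for hypoxia in differentiation medium.

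Changes that turned sign were none of those called with all libraries. After median-of-ratios scaling these were Srf for differentiation in normoxia (0.07) and for the interaction (-0.18), Mkl2 for hypoxia in growth medium (0.00) and Cyr61 for hypoxia in differentiation medium (-0.05). After upper-quartile scaling they were Srf for the interaction (-0.08) and Mkl2 for hypoxia in growth medium (0.05). With a library left out they were, for differentiation in hypoxia, Srf (-0.59 to 0.48) and Cnn2 (-1.17 to 0.35). For hypoxia in growth medium they were Mkl2 (-0.25 to 0.05), Yap1 (-0.01 to 0.04) and Cnn1 (-0.05 to 0.34), and for hypoxia in differentiation medium Yap1 (-0.05 to 0.05), Tagln (-1.90 to 0.22) and Cyr61 (-0.39 to 0.71). For the interaction they were Srf (-0.40 to 0.67), Yap1 (-0.07 to 0.04) and Cyr61 (-1.07 to 0.04). Cnn1 has no value without hypoxic differentiation replicate B. Settings for the lists were chosen after seeing the data. With 2 libraries a group and unknown depth, changes within the spread of hypoxic differentiation medium could not be resolved for Tagln, Cyr61 and Srf.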
